A study of Emberiza bruniceps with 4 samples.

Results

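Castrated and intact red-headed buntings (Emberiza bruniceps, a migratory songbird) were compared in autumn on 1 hypothalamic RNA library from each state, over 10559 genes out of 11945 protein names that received counts. A gene is the sum of all assembled contigs whose best match, by bit score and with an e-value of at most 1e-05, carried the same collared flycatcher protein name. Genes were kept when their mean over the 4 libraries of the study reached 1 CPM, where CPM is the count scaled to a total of 1000000 matched counts, after TMM scaling. Besides the autumn intact and autumn castrated libraries, the study holds a spring intact and a spring castrated one, which are given here as values beside the autumn pair. All birds were wild-caught and all 4 libraries are labelled hypothalamus. The sources used here do not give the number, sex and age of the birds behind a library, the time since the gonads were removed or any sham operation of the intact birds. No group has a replicate, so the spread between birds is unknown, no difference was tested, and each comparison is between 2 libraries and not between 2 populations of birds.

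The hypothalamus holds the neurons that release gonadotropin-releasing hormone, which drives the pituitary gonadotropins and through them the gonads. Gonadal steroids act back on hypothalamic neurons through nuclear receptors, and the songbird brain also makes oestradiol itself with aromatase. In birds that breed by season, day length reaches this axis through thyroid hormone activated in the basal hypothalamus, and the gonads are regressed in autumn. The comparison asks how hypothalamic RNA differs between birds with and without gonads in the autumn migratory season.

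Ratios are castrated over intact on the log2 scale after adding 0.5 CPM, which understates the change of genes at low counts. A gene is called higher or lower in the castrated library when its log2 ratio reaches 1 in size, that is 2-fold. Bracketed ranges are exact (Clopper-Pearson) 95% intervals from the split of the counts, taken without the added CPM. They cover counting error only, and since reads were not tagged by molecule they are not independent, so the true error is wider. A gene counted 0 times may stand at up to 3 counts. That is 0.405 CPM in the autumn intact and 0.297 CPM in the autumn castrated library. For a gene at 0 in 1 of them, "at least" gives the fold of the other library's observed CPM over the CPM of those 3 counts. This fold leaves out the counting error of the observed count. It is therefore not a 95% bound, and the exact interval reaches closer to equal levels. Where 4 CPM values follow a gene, they stand in the order autumn intact, autumn castrated, spring intact and spring castrated.

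The 4 libraries held 16840270 to 26213011 estimated counts, of which 39.1% to 41.7% fell on contigs with a kept match (7122813 in the autumn intact and 10918845 in the autumn castrated library). One name, neuroligin-3, took 14.9% of the matched counts of the autumn castrated library against 1.96% in the autumn intact, 1.37% in spring intact birds and 3.57% in spring castrated ones. These counts lay almost wholly on 1 contig matched to that synaptic adhesion protein, and without sequences it could not be checked that the contig is its mRNA. No other name took more than 0.928% in any library.

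Markers of other brain regions differed between the libraries, against their common label of hypothalamus. Of 21 genes known from the striatum and telencephalon, 17 were lower in the autumn castrated library and 2, the neuronal factors NEUROD6 and NEUROD2, higher, and their summed level was 6022 CPM in the autumn intact, 1322 in the autumn castrated, 6085 in spring intact birds and 1325 in spring castrated ones. Over all genes, 12.3% were higher and 15.2% lower in autumn. Genes of the thalamus, midbrain and hindbrain went the other way, with 11 of 17 higher, 0 lower and 3 (HOXA3, HOXD3 and EN2) at 0 counts in the autumn intact library. Summed over the 18 measured, they stood at 124 and 572 CPM in autumn and 145 and 837 CPM in spring. Of 10 Hox genes measured, which pattern the hindbrain and trunk, 8 were at 0 counts in the autumn intact library and 1 in the autumn castrated. Summed over the 10, they stood at 0.270 and 94.9 CPM in autumn and 0.685 and 146 CPM in spring. The 5 that passed the filter did so through the castrated libraries. Among the striatal genes ADORA2A, an adenosine receptor, was an exception at 309, 301, 313 and 281 CPM (-0.04 [-0.12 to 0.04]). PAX2 and EN1, which pattern the midbrain and hindbrain, had 0.270, 29.01, 0 and 66.8 CPM (5.26 [4.88 to 9.80]) and 0.135, 29.1, 0.137 and 40.9 CPM (5.54 [5.26 to 13.06]). The 18 hypothalamic markers measured summed to similar levels, 218 and 219.6 CPM in autumn, yet of the 16 analysed 5 were lower and 5 higher. NR5A1 (steroidogenic factor 1), which defines the ventromedial nucleus and also the pituitary gonadotrophs, had 0 and 33 counts in autumn, at least 8.07-fold higher, and LHX6, a factor of ventral forebrain neurons, 17.01, 0.396, 32.2 and 1.002 CPM (-4.29 [-7.32 to -4.03]). The most abundant contig of LHX6 gave 0.00. That value also arises where neither autumn library has counts on a contig, so it does not show level amounts. Removal of the gonads cannot be told apart from a different piece of tissue in any ratio below, and in bulk RNA fewer cells of a type and less RNA per cell cannot be told apart.

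In autumn 1304 genes were higher in the castrated library, 1608 were lower and 7647 fell short of 2-fold, which is 27.6% called of 10559, with a median log2 ratio of -0.01. The calls of each list below can be read against these shares, 12.3% of all genes higher and 15.2% lower. At 4-fold 272 genes were higher and 480 lower, and at 16-fold 28 and 49. The counting interval lay wholly past 2-fold for 765 of the higher genes (58.7%) and 1139 of the lower ones (70.8%). The scaling set the balance of the calls. With library totals in place of TMM, 1005 genes were higher and 2004 lower (33.4% of calls higher, against 44.8%), with the median of all genes shifted by -0.16, and with totals that leave out neuroligin-3, an alternative chosen after seeing the data, 1385 were higher and 1553 lower (47.1%).

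**Figure D1:**
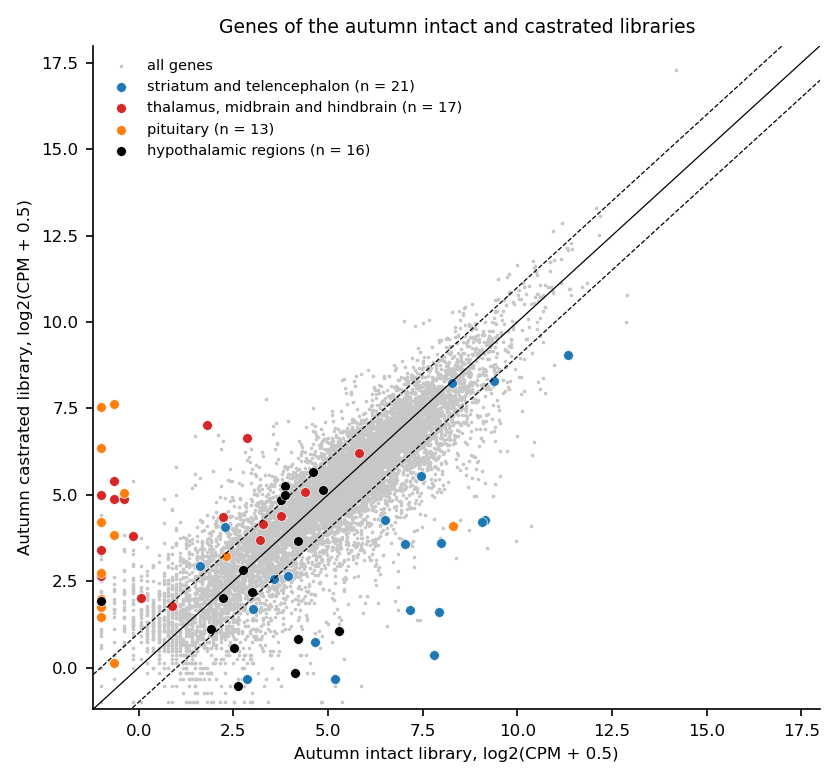
Each gene's level in the autumn intact library (x axis) and the autumn castrated library (y axis), both as log2(CPM + 0.5), with 1 library per axis. The solid line marks equal levels and the dashed lines 2-fold. Most striatal and telencephalic genes lie below the lines, and most pituitary and hindbrain genes above them, many at the left edge. The pituitary gene DLK1 lies below the lines. Hypothalamic genes lie on both sides, and the single point at the upper right is neuroligin-3.

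Genes of the gonadal axis did not move as a block. Of 31 measured members, 25 passed the filter on low counts, and of these 4 were higher, 6 lower and 15 short of 2-fold, with a median of 0.05 that was -0.12 with library totals. The shares over all genes were 12.3% higher and 15.2% lower. The 6 members under the filter were thinly covered. In the autumn intact and castrated libraries they had 1 and 20 counts for LHCGR and 2 and 4 for FSHR, the gonadotropin receptors, 0 and 5 for INHA, the inhibin alpha chain, 0 and 1 for STAR, which brings cholesterol into mitochondria, 6 and 2 for TSPO, and 5 and 5 for the gene paired with HSD3B1.

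At the top of the axis, GNRH1 (progonadoliberin-1, the precursor of gonadotropin-releasing hormone) was lower, at 5.67, 0.198, 1.51 and 2.43 CPM. The autumn ratio was -3.14 [-7.93 to -2.90], on 42 and 2 counts, and the spring ratio 0.55. The autumn intact library held the most GNRH1 of the 4 and the autumn castrated one the least. NKX2-1, a transcription factor of the ventral forebrain and basal hypothalamus, had 17.8, 1.29, 22.3 and 2.29 CPM (-3.36 [-4.74 to -2.97]), and LHX8, expressed in the basal forebrain, 38.8, 1.58, 53.1 and 0.429 CPM (-4.24 [-5.44 to -3.89]). TACR3, the neurokinin B receptor (neuromedin-K receptor in the files), which acts upstream of gonadotropin-releasing hormone neurons in mammals, had 11.3, 5.54, 17.1 and 8.44 CPM, a ratio of -0.97 that fell short of 2-fold in autumn and in spring (-0.98).

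The nuclear receptors for oestrogen and progesterone fell short of 2-fold in autumn. ESR1, oestrogen receptor alpha, had 10.1, 7.72, 19.6 and 12.3 CPM (-0.37 [-0.87 to 0.09]), and ESR2, oestrogen receptor beta, 11.5, 6.04, 20.96 and 11.6 CPM (-0.87 [-1.43 to -0.43]). PGR, the progesterone receptor, whose gene is induced by oestradiol in many tissues, had 9.59, 5.05, 19.998 and 9.59 CPM (-0.86 [-1.47 to -0.39]). For ESR1, ESR2 and PGR alike the spring intact library was the highest of the 4. GPER1, a membrane receptor for oestradiol, had 16.6, 29.2, 22.9 and 37.6 CPM (0.80 [0.51 to 1.13]). Per length, ESR2 stood at 1.25, 0.797, 2.32 and 1.28 TPM and ESR1 at 0.784, 0.618, 1.63 and 0.961 TPM, so ESR2 was the higher of this pair in each library.

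Among the enzymes, CYP19A1 (aromatase) was lower in both castrated libraries, at 26.9, 4.95, 33.7 and 6.297 CPM, with ratios of -2.33 [-2.92 to -1.99] in autumn and -2.33 [-2.92 to -1.95] in spring. AKR1D1 (3-oxo-5-beta-steroid 4-dehydrogenase), which inactivates androgens by 5-beta reduction in birds as in mammals, was lower as well, at 8.78, 1.58, 8.22 and 1.72 CPM (-2.15 [-3.36 to -1.66]). The 5-alpha reductase SRD5A1, which makes the more potent androgen from testosterone, had 11.3, 20.5, 16.03 and 22.3 CPM (0.83 [0.48 to 1.24]), with SRD5A2 at 0.27 and SRD5A3 (polyprenol reductase in the files) at -0.25, all short of 2-fold. CYP11A1, which opens steroid synthesis by cutting the cholesterol side chain, had 10.9, 3.86, 0.959 and 10.4 CPM, so the castrated library was lower in autumn (-1.39 [-2.09 to -0.93]) and higher in spring (2.91 [2.33 to 4.81]). The spring intact library was the one that stood low. CYP11A1 sums 21 contigs, the longest of 1061 bases, on 81 and 39 counts in the autumn intact and castrated libraries. Its most abundant contig held 16.1% of the counts, at 77.2% identity to the flycatcher protein, and gave -2.62 in autumn. HSD17B4, a peroxisomal enzyme of fatty acid and oestradiol breakdown, was higher at 344, 766, 398 and 621 CPM (1.15 [1.09 to 1.22]). HSD17B1, which makes oestradiol from oestrone in mammals, passed 2-fold on only 2 and 12 counts, with an interval of 1.13 [-0.03 to 5.34]. FDX1 and POR, which carry electrons to steroid-making P450 enzymes, were at 0.05 and 0.15. STS, which frees steroids from their sulphates, was at -0.19 and HSD17B12 at 0.23. The partner of FDX1, FDXR, was at 0.92, but its most abundant contig alone gave -1.08.

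The activin and inhibin genes split by role. Both subunit genes were higher, INHBA at 3.24, 9.504, 4.52 and 9.73 CPM (1.42 [0.89 to 2.26]) and INHBB at 4.05, 9.11, 4.79 and 11.02 CPM (1.08 [0.56 to 1.81]). Both type II activin receptors were lower, ACVR2A at 381, 139, 394 and 196 CPM (-1.45 [-1.55 to -1.36]) and ACVR2B at 10.1, 4.16, 8.903 and 1.72 CPM (-1.19 [-1.87 to -0.72]). FST, the activin-binding protein follistatin, was at 0.29. In spring INHBA and INHBB were at 1.03 and 1.12 and ACVR2B at -2.08, while ACVR2A sat at the 2-fold line (-1.0). Of the 10 members of the axis called in autumn, GNRH1, CYP19A1, AKR1D1, ACVR2A and INHBA stayed past 2-fold under every alternative processing that measured them. The other 5 came short under at least 1, INHBB (0.92) and HSD17B4 (0.99) with library totals in place of TMM, ACVR2B (-0.98) and HSD17B1 (0.49) with 2 CPM added, and CYP11A1 (-0.64) with the deposited TPM.

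**Figure D2:**
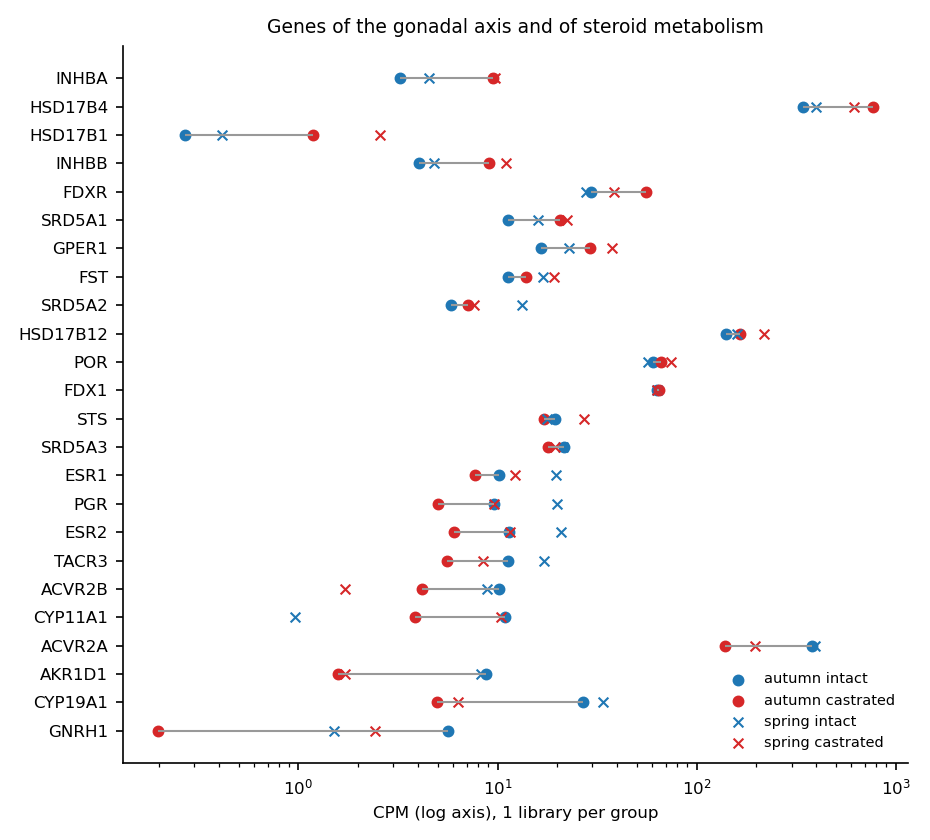
CPM (log axis) of 24 of the 25 analysed genes of the gonadal axis and of steroid metabolism in the 4 libraries, ordered by the autumn ratio, with a line joining the autumn intact (blue circle) and autumn castrated (red circle) libraries and crosses for spring. Each symbol is 1 library and no error bar can be drawn. Of the 24 genes 10 pass 2-fold in autumn, with INHBA and GNRH1 at the 2 ends.

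Most genes for proteins that carry the signal of steroid receptors fell short of 2-fold. Of 14 chaperones and cofactors, 3 were higher, 3 lower and 8 short of 2-fold, beside 12.3% higher and 15.2% lower over all genes. HSP90AA1, the chaperone that holds steroid receptors ready for ligand, had 4299, 9996, 4303 and 7533 CPM (1.22 [1.2 to 1.24]). FKBP5, a co-chaperone whose gene is induced by glucocorticoids and androgens, had 20.1, 45.2, 16.98 and 19.6 CPM (1.15 [0.90 to 1.45]; 0.98 on its most abundant contig). It stood highest in the autumn castrated library. The corepressor NCOR1 was lower, at 447, 206, 530.4 and 252 CPM (-1.12 [-1.2 to -1.04]). The acetyltransferases EP300 (-1.03) and CREBBP (-1.02) lay just past 2-fold, and their most abundant contigs alone gave -0.68 and -0.13.

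Most hormone genes of the anterior pituitary were present in the castrated autumn library and at 0 to 2 counts in the intact one. Of 13 pituitary genes 10 were higher and 1, DLK1, lower, and 7 of the 13 (PRL, GH1, TSHB, POU1F1, PITX1, LHX3 and GHRHR) had 0 counts in the autumn intact library. The sum over the list was 322 CPM there and 568 CPM in the autumn castrated library, and DLK1 alone, a gene also expressed in neurons, held 317, 16.6, 186 and 9.59 CPM (-4.21 [-4.49 to -4.03]). POMC, the precursor of ACTH and of melanocyte-stimulating hormone, which hypothalamic neurons also make, had 0.135, 196, 2.47 and 89.3 CPM, on 1 and 1980 counts (8.27 [8.02 to 15.81]). GHRHR, the receptor of growth hormone-releasing hormone on somatotrophs, had 0 and 182 counts and was at least 44.5-fold higher in autumn, with 0, 18.02, 0.137 and 3.15 CPM. TSHB, the beta chain of thyrotropin, had 0 and 35 counts and was at least 8.55-fold higher. POU1F1, the factor of growth hormone, prolactin and thyrotropin cells, had 0, 6.14, 4.79 and 7.299 CPM and was at least 15.2-fold higher in autumn, while the spring intact library held it too. FSHB, the follitropin beta chain, had 0.135, 0.594, 0 and 148 CPM, so the spring castrated library alone carried it at more than a few counts. CGA, the alpha chain shared by the gonadotropins and thyrotropin, had 0.270, 32.5, 0 and 521 CPM, and in both castrated libraries it was above the intact ones. How much of any difference in POMC, GHRHR or TSHB comes from pituitary tissue in the sample was not tested.

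Of 22 genes of the photoperiod and thyroid hormone axis, 2 were higher (the pituitary chains TSHB and CGA), 5 lower and 15 short of 2-fold, a share of calls near the 27.6% over all genes. DIO2, the enzyme that activates thyroid hormone, had 33.1, 19.1, 14.2 and 35.6 CPM, with ratios of -0.78 [-1.07 to -0.51] in autumn and 1.29 in spring. DIO1 was at -0.56, THRA, the alpha thyroid hormone receptor, at -0.47, and TSHR, the thyrotropin receptor, at -0.06. SLCO1C1, a transporter of thyroid hormone, was at 0.28. The photopigment genes were thinly covered, OPN5, a deep-brain photoreceptor of birds, at 1.62, 1.39, 2.74 and 0.429 CPM and OPN4 (melanopsin) at 1.35, 2.97, 2.88 and 1.15 CPM. Of the melatonin receptors MTNR1B was lower in both castrated libraries, at 18.9, 4.36, 15.3 and 3.86 CPM (-2.0 [-2.64 to -1.62]), and MTNR1A had 2.7004, 5.64, 6.44 and 3.58 CPM (0.94).

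The autumn intact library stood apart in genes of the choroid plexus, the tissue that makes cerebrospinal fluid. Over 12 of its markers, of which 10 passed the filter, the summed level was 8692 CPM in the autumn intact library against 2946 in the autumn castrated. It was 787 in spring intact birds and 2029 in spring castrated ones. TTR (transthyretin), the thyroid hormone carrier of cerebrospinal fluid, made up most of both autumn sums at 7622, 1746, 239 and 805 CPM, lower in autumn (-2.13 [-2.15 to -2.1]) and higher in spring (1.75). Of the 10 analysed markers 4 were lower, 0 higher and 6 short of 2-fold, and none of the 10 was at 0 counts in an autumn library. KCNJ13, a potassium channel of that epithelium, had 77.1, 7.42, 0.959 and 4.58 CPM (-3.29 [-3.74 to -3.03]), and KL (klotho), an anti-ageing protein made there, 76.2, 8.12, 13.1 and 9.59 CPM (-3.15 [-3.58 to -2.89]). SLC13A4, a sulphate transporter, had 229.9, 139, 19.7 and 101 CPM (-0.72), with 0.99 on its most abundant contig. The water channel AQP1 was at 0.69 and ENPP2, an enzyme also made by oligodendrocytes, at 0.81. Of 10 genes of ependymal cells, most of them of motile cilia, 4 were lower, 1 higher and 5 short of 2-fold, with a median of -0.36. FOXJ1, the master transcription factor of motile cilia, had 28.8, 11.6, 9.18 and 15.03 CPM (-1.28 [-1.65 to -0.98]), SPEF2 122, 27.03, 51.5 and 36.4 CPM (-2.15 [-2.37 to -1.97]) and the dynein heavy chain DNAH5 147, 57.5, 62.3 and 48.9 CPM (-1.35 [-1.50 to -1.21]), all highest in the autumn intact library. CFAP43, of the cilium's axoneme, had 15.1, 5.84, 18.8 and 5.44 CPM (-1.30 [-1.85 to -0.90]), highest in the spring intact library and at 0.00 on its most abundant contig, and TEKT2, a tektin of the axoneme, was the 1 higher gene at 0.270, 1.09, 1.37 and 3.15 CPM (1.05 [-0.18 to 5.23]). Of 12 axonemal dynein genes 5 were lower and 1 higher. What part choroid plexus or ependyma in the tissue piece has in these ratios was not tested.

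Clock genes were lower or short of 2-fold, with 7 lower, 0 higher and a median of -0.96 over 17, against -0.01 for all genes. HLF, a PAR-domain activator, had 135, 23.5, 148 and 33.9 CPM (-2.50 [-2.74 to -2.32]). The period gene PER3 had 4.59, 0.891, 6.57 and 0.143 CPM (-1.87 [-3.61 to -1.28]), with -0.45 on its most abundant contig, and TEF, another PAR-domain activator, was at -1.86 and CLOCK at -1.81. NPAS2, a partner of BMAL1 like CLOCK, had 149.7, 70.6, 113 and 77.1 CPM (-1.08 [-1.22 to -0.95]) in a step that fell short in spring (-0.55). BHLHE40, a repressor of the loop, had 45.9, 21.4, 27.9 and 26.3 CPM (-1.08 [-1.35 to -0.85]), and was highest in the autumn intact library. The period gene PER2 had 106, 36.2, 98.6 and 48.2 CPM (-1.53 [-1.73 to -1.37]), with -0.14 on its most abundant contig. The cryptochromes CRY1 (-0.65) and CRY2 (0.20) and the repressor NR1D2 (-0.03) were short of 2-fold. The sources used here do not give the hour of day at which each bird was sampled.

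Peptides and receptors of feeding and energy balance went both ways, with 12 higher, 10 lower and 12 short of 2-fold among 34. Over all genes the shares were 12.3% higher and 15.2% lower. NPY1R, the type 1 neuropeptide Y receptor, had 35.6, 4.95, 24.2 and 8.01 CPM (-2.73 [-3.31 to -2.41]), and INSR, the insulin receptor, 201, 53.1, 241 and 58.8 CPM (-1.91 [-2.06 to -1.78]). IGF1 had 87.5, 15.2, 72.2 and 27.8 CPM (-2.48 [-2.78 to -2.27]) and IRS2, an adaptor below the insulin receptor, 152, 44.9, 118 and 37.8 CPM (-1.75 [-1.92 to -1.60]). MC3R, a receptor of melanocortins, was lower (-1.31 [-1.79 to -0.95]), while MC4R (-0.14), NPY2R (-0.07) and the orexin receptor HCRTR2 (-0.60) fell short. AGRP, an appetite peptide of the arcuate nucleus, had 18.1, 12.1, 4.25 and 22.2 CPM, with the spring intact library the lowest. LEPR, named leptin receptor in the files, was at -0.97, and its most abundant contig alone gave 3.25.

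Among the peptides of the same list, CARTPT, the cocaine- and amphetamine-regulated transcript, an appetite suppressor, had 8.51, 55.6, 15.1 and 22.3 CPM (2.64 [2.33 to 3.11]) and was highest there. CCK (cholecystokinin) had 34.6, 78.01, 37.3 and 40.2 CPM (1.16 [0.97 to 1.38]), and its receptors CCKAR (1.86 [1.11 to 4.55]) and CCKBR (1.25 [0.89 to 1.72]) were higher too. NMB (neuromedin-B) had 1.49, 31.3, 9.86 and 14.5 CPM (4.0 [3.54 to 5.41]), with a spring ratio of 0.53. HCRT (orexin), a peptide of arousal and feeding, had 12.96, 28.5, 22.3 and 36.2 CPM (1.11 [0.80 to 1.49]), and GHRH, growth hormone-releasing hormone, 23.6, 50.4, 49.4 and 33.6 CPM (1.08 [0.84 to 1.35]). NMU (neuromedin-U), which suppresses feeding, was lower, at 12.3, 1.19, 0.685 and 3.01 CPM (-2.92 [-4.38 to -2.50]), and lay the other way in spring (1.56).

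Among stress and vasotocin genes CRH, the releasing hormone of the adrenal axis, was higher, at 14.04, 31.7, 15.8 and 21.8 CPM (1.15 [0.85 to 1.51]), and highest in the autumn castrated library. AVPR1A, the V1a receptor for vasotocin, was lower at 12.96, 5.54, 15.9 and 12.6 CPM (-1.16 [-1.73 to -0.73]). The corticotropin-releasing factor receptors CRHR1 (-0.78; -3.62 on its most abundant contig) and CRHR2 (-0.78), the binding protein CRHBP (-0.96) and the mineralocorticoid receptor NR3C2 (-0.76) fell short. AVPR1B, the V1b receptor of pituitary corticotrophs, had 0.135, 13.8, 0 and 12.9 CPM and went with the pituitary genes. Of 6 opioid and tachykinin genes 5 were lower. PENK, the enkephalin precursor, had 667, 314, 739 and 319 CPM (-1.09 [-1.15 to -1.02]), the kappa opioid receptor OPRK1 47.7, 16.3, 58.2 and 14.6 CPM (-1.52 [-1.82 to -1.27]), and TACR1, the substance P receptor, 30.5, 10.1, 16.2 and 19.04 CPM (-1.55 [-1.95 to -1.25]), while the nociceptin receptor OPRL1 was at 0.46.

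The monoamine genes called higher and those called lower differed in role. Of 35 members 6 were higher and 12 lower, beside 12.3% and 15.2% of all genes. All 6 higher genes make, store or take up a monoamine. TH, the rate-limiting enzyme of dopamine and noradrenaline synthesis, had 4.19, 19.998, 9.45 and 17.3 CPM (2.13 [1.71 to 2.85]), DDC, the decarboxylase, 9.05, 75.2, 29.2 and 69.99 CPM (2.99 [2.69 to 3.44]), and DBH, which makes noradrenaline, 0.540, 12.9, 1.51 and 16.6 CPM (3.68 [3.18 to 6.47]). All 12 lower genes are receptors. HTR2A had 58.3, 10.5, 39.3 and 19.5 CPM (-2.42 [-2.8 to -2.17]), HTR1B 407, 154, 459 and 262 CPM (-1.40 [-1.49 to -1.31]) and HTR2C 104.6, 42.4, 112 and 43.9 CPM (-1.29 [-1.48 to -1.13]). ADRA2C, an inhibitory adrenergic receptor, had 117, 27.6, 122 and 23.04 CPM (-2.06 [-2.28 to -1.88]). HTR2B was lower at 7.16, 0.792, 0.959 and 0.573 CPM (-2.57 [-4.46 to -2.09]), and the autumn intact library alone held it above 1 CPM. The dopamine receptor DRD3 (0.59) and the histamine receptor HRH3 (0.73) were short of 2-fold. SLC6A4, SLC18A2 and TPH2 led the higher side (ratios 5.21, 4.14 and 3.79). SLC6A4 and TPH2 are markers of serotonin neurons of the hindbrain and went with the hindbrain markers described above. TH stands in that same list of thalamus, midbrain and hindbrain markers. What part a different piece of tissue has in the ratios of the higher genes or of the lower receptors was not tested. SLC18A2, the synaptic vesicular amine transporter, is shared by monoamine neurons and not particular to serotonin.

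Genes of the fast transmitters glutamate and GABA were lower more often than higher. Of 34 glutamate and GABA genes 18 were lower and 2 higher, against 15.2% and 12.3% of all genes (median -1.2). The subunits of one receptor type did not move alike. Of the NMDA receptor, GRIN1 had 129, 11.1, 114 and 23.5 CPM (-3.48 [-3.84 to -3.26]) and GRIN2A 171, 21.1, 148 and 21.8 CPM (-2.99 [-3.24 to -2.81]), whereas GRIN2C, a subunit abundant in the cerebellum, was higher at 7.29, 25.5, 4.93 and 28.9 CPM (1.74 [1.38 to 2.26]). Of the AMPA receptor, GRIA1 (-1.62) and GRIA2 (-1.71) were lower, GRIA3 (-0.94) and GRIA4 (-0.16) short of 2-fold. Of the GABA-A receptor, the subunit GABRA5 was lower (-3.29). SLC32A1, which loads GABA and glycine into vesicles, had 903, 622, 887 and 687 CPM (-0.54).

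Among 19 acetylcholine and glycine genes 5 were higher and 5 lower. SLC6A5, the transporter of glycine-releasing neurons, had 3.78, 105.4, 4.79 and 114 CPM (4.63 [4.26 to 5.4]), and GLRA1, the adult glycine receptor subunit of brainstem and spinal cord, 2.57, 44.3, 5.48 and 33.5 CPM (3.87 [3.45 to 4.85]). GLRA3, another alpha subunit, went the other way at 9.45, 0.198, 6.44 and 0.429 CPM, on 70 and 2 counts (-3.83 [-8.65 to -3.67]). The muscarinic receptors CHRM4 (-4.01 [-4.29 to -3.82]), CHRM5 (-2.29 [-2.76 to -1.99]) and CHRM2 (-1.96 [-2.33 to -1.70]) were lower, and CHRM4 had 264, 15.9, 244 and 13.3 CPM. The enzyme and carriers of cholinergic neurons fell short, with CHAT at -0.07, SLC5A7 at 0.19 and SLC18A3 at 0.67. Nicotinic CHRNA4 was higher at 5.401, 16.5, 5.75 and 16.7 CPM (1.53 [1.11 to 2.15]), and CHRNB2, its usual partner, was at 0.00.

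Ion channels were lower more often than higher. Of 30 voltage-gated potassium channel genes 17 were lower and 3 higher, with a median of -1.40 against -0.71 in spring. Potassium voltage-gated channel subfamily KQT member 5, of the M-current family, had 42.4, 7.92, 88.3 and 5.15 CPM, on 314 and 80 counts (-2.35 [-2.79 to -2.06]). Subfamily H member 4 had 42.4, 0.693, 37.1 and 2.004 CPM (-5.17 [-7.26 to -4.88]). Subfamily H member 6 had 38.8, 2.28, 46.4 and 143 CPM, lower in the autumn castrated library (-3.82 [-4.77 to -3.48]) and higher in the spring castrated one (1.61). Of 31 sodium and calcium channel genes 13 were lower and 3 higher, among the lower ones the R-type calcium channel alpha-1E at 104, 15.5, 129.6 and 17.3 CPM (-2.70 [-3.0 to -2.49]). Sodium channel subunit beta-4, which allows fast firing, was higher, at 6.75, 63.6, 7.396 and 76.7 CPM (3.14 [2.82 to 3.68]).

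Immediate early genes, which neurons switch on within minutes of activity, were lower or short of 2-fold. Of 21 analysed 9 were lower, 0 higher and 12 short, with a median of -0.81 in autumn against -0.21 in spring, a difference that was not tested. EGR1, a widely used marker of activity in the songbird brain, had 747, 134, 213 and 148 CPM, with ratios of -2.47 [-2.56 to -2.39] in autumn and -0.52 in spring. FOS had 251, 106, 49.995 and 77.1 CPM, lower in autumn (-1.24 [-1.35 to -1.13]; -0.87 on its most abundant contig) and at 0.62 in spring. NR4A3 had 58.6, 12.97, 6.71 and 5.72 CPM (-2.13 [-2.47 to -1.89]; -0.82 on its most abundant contig), and ARC, a synaptic protein, 285, 41.2, 94.6 and 30.2 CPM (-2.78 [-2.95 to -2.64]). For EGR1, FOS, NR4A3 and ARC alike, the autumn intact library was the highest of the 4. EGR3 had 115, 4.55, 84.2 and 4.29 CPM (-4.51 [-5.12 to -4.23]) and instead was high in both intact libraries. NPAS4, which responds to calcium entry, had 4.32, 5.74, 10.5 and 3.72 CPM (0.37), and NR4A2 had 6.48, 11.4, 3.97 and 8.44 CPM (0.77).

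Genes of immature and migrating neurons were lower more often than higher, with 9 lower, 3 higher and 7 short of 2-fold among 19. Over all genes 15.2% were lower and 12.3% higher. DCX (doublecortin), a microtubule protein of migrating neurons, which the adult songbird telencephalon keeps making, had 105.04, 7.82, 159 and 8.59 CPM (-3.67 [-4.10 to -3.41]). SOX4 had 13.5, 2.18, 6.99 and 5.295 CPM (-2.39 [-3.37 to -1.96]) and SOX11 13.2, 4.26, 12.9 and 10.7 CPM (-1.53 [-2.19 to -1.10]), both transcription factors of young neurons, and both had spring ratios short of 2-fold (-0.37 and -0.25). Dividing cells left few counts, with TOP2A at 2.57, 2.18, 1.23 and 2.72 CPM, while PCNA, which also serves repair, had 56.3, 111, 65.2 and 70.3 CPM (0.97). STMN1 (stathmin) and TUBB3 (tubulin beta-3), cytoskeletal proteins of neurons, were higher, at 884, 2703, 1127 and 1338 CPM (1.61 [1.57 to 1.65]) and 6.48, 75.5, 6.57 and 16.3 CPM (3.45 [3.12 to 4.0]), and stood highest in the autumn castrated library.

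**Figure D3:**
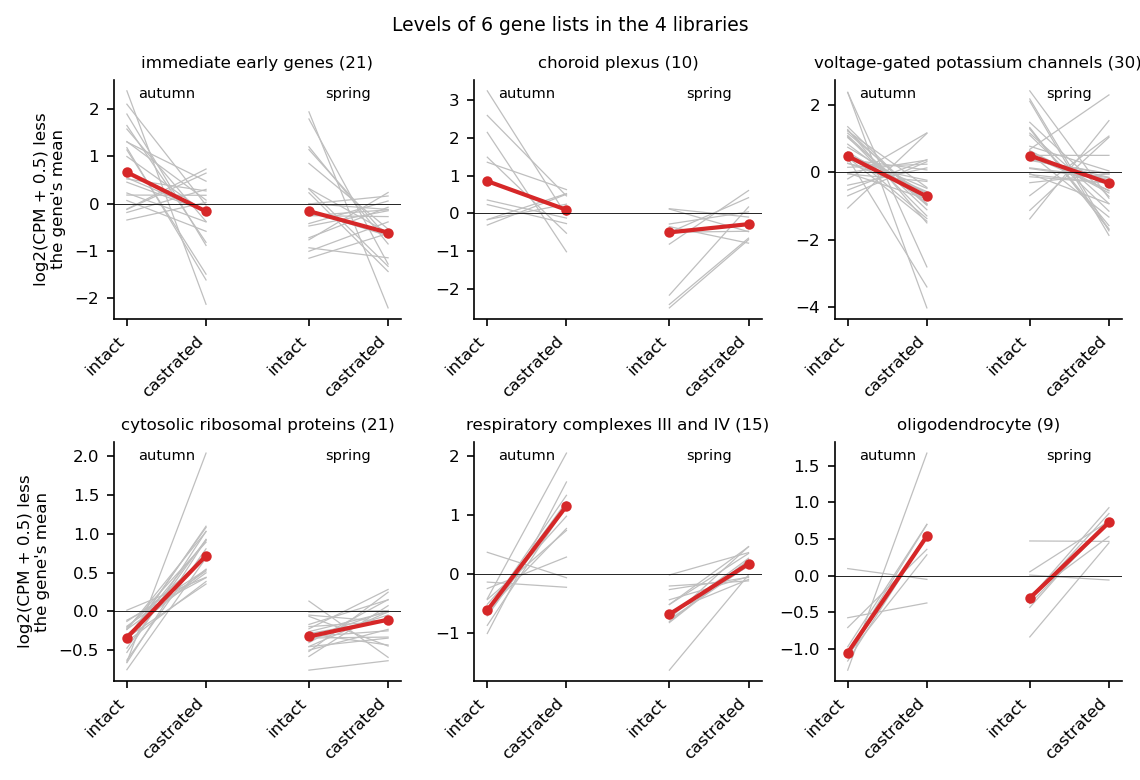
Level of each member, as log2(CPM + 0.5) less its mean over the 4 libraries, in 6 gene lists (number of genes in brackets), with grey lines for single genes and red points for the list median in each library, 1 library per point. The immediate early and choroid plexus medians are highest in the autumn intact library, and the medians of cytosolic ribosomal proteins and of respiratory complexes III and IV are highest in the autumn castrated one.

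Myelin genes were higher in the castrated library. Of 9 oligodendrocyte genes 7 were higher and 0 lower, summing to 5731 CPM in the autumn intact, 18214 in the autumn castrated, 9775 in spring intact birds and 21322 in spring castrated ones. ERMN (ermin), of late myelinating cells, had 40.9, 321, 56.2 and 137 CPM (2.96 [2.8 to 3.15]). PDGFRA, which marks their precursor cells, was at -0.15. Of the astrocyte genes, the glutamate transporter SLC1A2 was lower at 844, 77.1, 903 and 93.7 CPM (-3.44 [-3.56 to -3.35]), while SLC1A3 (-0.59) and GLUL (0.33), glutamine synthetase, were short of 2-fold. The complement genes C1QA (1.16 [0.85 to 1.54]) and C1QB (1.08 [0.73 to 1.52]) were the 2 microglial genes of 9 that were higher. CSF1R, the receptor microglia depend on, had 70.1, 48.2, 44.1 and 70.6 CPM (-0.53). Vessel genes held together, with 10 of 11 short of 2-fold and MYH11, a smooth muscle myosin, lower (-1.45 [-1.69 to -1.24]).

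Many genes for ribosomes and for respiration were higher in the autumn castrated library. Of 21 cytosolic ribosomal protein genes 12 were higher, 0 lower and 21 above 0, with a median of 1.11 against 0.18 in spring, where 0 were called. 60S ribosomal protein L37a had 53.1, 344, 49.3 and 53.7 CPM (2.69 [2.55 to 2.85]) and 60S ribosomal protein L3 134, 365, 194 and 275 CPM (1.44 [1.34 to 1.54]). For both, the autumn castrated library was the highest. Of 57 mitochondrial ribosomal protein genes 19 were higher and 0 lower.

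The respiratory complexes followed, and so did a list that joins ATP synthase with V-type ATPase genes, which are not part of respiration. Of 29 complex I genes 17 were higher, of 15 genes of complexes III and IV 12, of 24 ATP synthase and V-type ATPase genes 11, and 0 were lower in each. The medians were 1.05, 1.83 and 0.99 in autumn against 0.53, 0.86 and 0.63 in spring, and the difference between seasons was not tested. Cytochrome c oxidase subunit 5B, of the last complex, had 66.02, 392, 76.02 and 157 CPM (2.56 [2.43 to 2.71]), and the Rieske protein of complex III 73.99, 274, 74.7 and 135 CPM (1.88 [1.76 to 2.02]). ATP synthase-coupling factor 6 had 33.9, 171, 30.4 and 59.1 CPM (2.32 [2.14 to 2.53]). The length of a gene's contigs moved with its ratio. Among the 2640 genes whose longest contig was shortest (202 to 1425 bases) the median ratio was 0.30 and 22.2% were higher, and among the 2640 genes with the longest ones (3821 to 24532 bases) it was -0.34 and 4.36% were higher. Spring showed the same order, with 0.23 and -0.34. After subtracting the median of genes of like contig length, in 10 classes, an alternative chosen after seeing the data, the medians were 0.89 for cytosolic ribosomal proteins, 0.92 for complex I, 1.43 for complexes III and IV and 0.92 for ATP synthase and V-type ATPase genes. For mitochondrial ribosomal proteins the centred median was 0.53, against 0.74 without centring. The sources used here do not give the integrity of the RNA, and its part in the ratios of short genes was not tested.

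Glycolysis went the same way, with 7 of 18 genes higher and 1 lower (SLC16A7, a lactate and pyruvate carrier of neurons, at -1.10). The shares of all genes were 12.3% and 15.2%. ENO1 (alpha-enolase) had 722, 2439.7, 704 and 1699 CPM (1.76 [1.71 to 1.80]) and LDHB, the lactate dehydrogenase chain of oxidative cells, 358, 1068, 376 and 921 CPM (1.58 [1.52 to 1.64]). The glucose transporters SLC2A1 (-0.01) and SLC2A3 (-0.42) were short of 2-fold. Of 25 sterol and fatty acid genes 5 were higher, against 12.3% of all genes, and all but 1 of them were enzymes of cholesterol synthesis. LSS (lanosterol synthase) had 33.9, 99.1, 25.6 and 66.4 CPM (1.53 [1.35 to 1.75]) and PMVK (phosphomevalonate kinase) 8.64, 43.4, 9.73 and 13.7 CPM (2.26 [1.95 to 2.73]). SREBF2, the transcription factor that regulates that pathway, was at -0.73.

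Of 23 heat shock and folding genes 6 were higher and 1 lower, against 12.3% and 15.2% of all genes. The small heat shock proteins led, CRYAB (alpha-crystallin B) at 23.6, 183, 49.2 and 105.1 CPM (2.92 [2.73 to 3.18]), HSPB1 at 4.05, 37.9, 8.903 and 39.4 CPM (3.08 [2.69 to 3.81]) and HSPB8 at 4.59, 42.9, 8.36 and 32.2 CPM (3.09 [2.72 to 3.77]). HSPA2, a member of the 70 kDa chaperone family, had 312, 1258, 252 and 402 CPM (2.01 [1.95 to 2.08]). Chaperones of the endoplasmic reticulum were short of 2-fold, HSPA5 at 0.62 and HSP90B1 at 0.26.

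**Figure D4:**
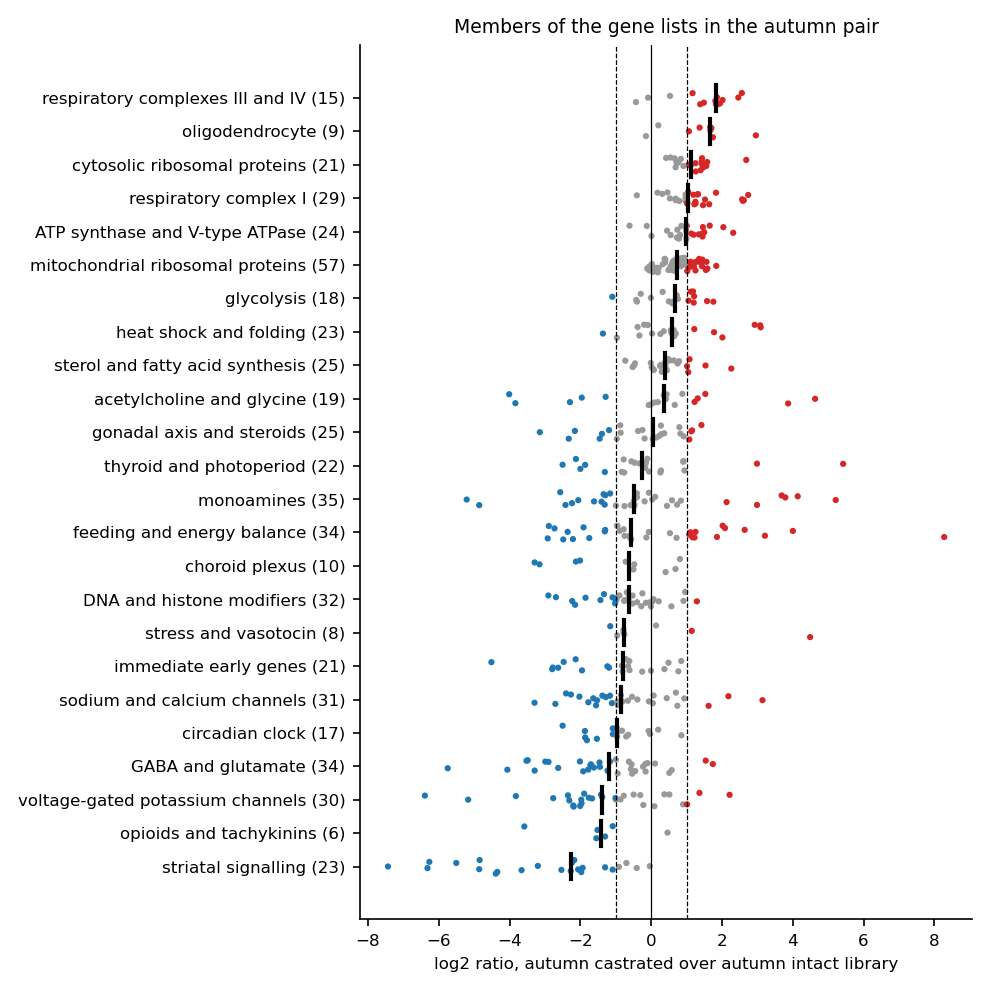
Log2 ratio (castrated over intact library, autumn) of each analysed member of 24 gene lists, red where 2-fold higher, blue where 2-fold lower and grey between, with a black bar at the list median and the number of genes in brackets. Dashed lines mark 2-fold, and each point compares 2 libraries. Lists of respiration, ribosomes and myelin sit to the right, and striatal signalling, opioids and potassium channels to the left.

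Genes that act on chromatin and genes of axon guidance were, with 1 exception among them, lower or short of 2-fold. Of 32 DNA and histone modifiers 10 were lower and 1 higher. The 5-methylcytosine dioxygenases TET1, at 52.5, 7.72, 60.95 and 3.86 CPM (-2.69 [-3.14 to -2.41]), and TET2, at 70.6, 14.7, 86.6 and 9.303 CPM (-2.23 [-2.54 to -2.0]), were lower in both castrated libraries. DNMT1, the maintenance methyltransferase, had 24 and 0 counts in autumn, at least 10.9-fold lower, while DNMT3B was higher at 3.51, 9.31, 4.11 and 5.295 CPM (1.29 [0.77 to 2.09]). The histone deacetylases HDAC2 (0.07), HDAC3 (0.57) and HDAC8 (-0.05) fell short. Of 27 semaphorin and plexin genes 7 were lower and 0 higher. Of 14 ephrin and Eph receptor genes 6 were lower and 0 higher. Among the 2640 genes with the longest contigs (3821 to 24532 bases) 22.5% were lower and 4.36% higher. The median longest contig was 3890 bases for semaphorins and plexins, 2356.5 for ephrins and Eph receptors and 3225.5 for DNA and histone modifiers. Centred by contig length, the list medians in that order were -0.40, -0.81 and -0.50, against -0.57, -0.76 and -0.64 without centring. The part of contig length in these counts was not tested. Semaphorin-3A, an axon repellent, had 259, 99.2, 247 and 139.7 CPM (-1.38 [-1.50 to -1.28]) and ephrin type-A receptor 4 396, 91.5, 309 and 123 CPM (-2.11 [-2.22 to -2.01]). Cadherins and protocadherins split less, with 14 lower, 5 higher and 43 short of 2-fold. The large families of solute carriers (7 higher and 4 lower of 63), zinc finger proteins (7 and 37 of 197) and E3 ubiquitin ligases (6 and 15 of 115) can be read against the 12.3% and 15.2% of all genes. Of 26 other potassium channel genes 2 were higher and 11 lower, of 32 protein tyrosine phosphatases 2 and 9, of 12 tight junction genes 3 and 1, and of 13 genes of antigen presentation and interferon 0 and 1. Proteasome subunits (4 higher of 18), citric acid cycle enzymes (2 of 9) and general neuronal genes (5 of 7) had 0 lower members.

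Genes of the synaptic vesicle and of the extracellular matrix also went both ways. VAMP1, a vesicle fusion protein of brainstem and motor neurons, was higher at 9.72, 217, 14.2 and 158 CPM (4.41 [4.14 to 4.84]), and SYT2, a fast calcium sensor of such synapses, at 72.4, 345, 84.9 and 419 CPM (2.25 [2.12 to 2.39]). SV2C, of striatal terminals, was lower at 416, 37.2, 602 and 43.2 CPM (-3.46 [-3.64 to -3.33]), and SYN2 (synapsin-2) was at 0.12. HAPLN4, a link protein of perineuronal nets, was higher at 0.405, 9.999, 0 and 2.15 CPM, on 3 and 101 counts (3.54 [3.04 to 6.93]). CHAD (chondroadherin), a cartilage matrix protein, had 567, 40.3, 3.29 and 39.8 CPM, lower in autumn (-3.80 [-3.96 to -3.67]) and higher in spring (3.41). OGN (mimecan), a small matrix proteoglycan, had 162.6, 33.7, 35.1 and 20.8 CPM (-2.25 [-2.45 to -2.1]).

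The spring pair, which shares no library with the autumn pair, gave 8.61% of genes higher, 14.6% lower and 23.2% called in all. Of the 1304 genes higher in autumn 476 were 2-fold higher in spring as well (36.5% of the autumn and 52.4% of the spring calls), 667 had the same sign short of 2-fold, 141 had the other sign or 0 and were short of it and 20 were 2-fold the other way. Of the 1608 lower in autumn the counts were 1014 (63.1% and 65.9%), 442, 110 and 42. Season and library cannot be told apart in such differences.

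Some genes were apart in autumn and near level in spring. Helicase ARIP4, a chromatin remodelling enzyme, had 2.295, 104, 23.97 and 26.9 CPM, on 17 and 1047 counts in autumn (5.22 [4.81 to 6.28]), and stood low in the autumn intact library and high in the autumn castrated one. Receptor of activated protein C kinase 1, a part of the ribosome, had 1.08, 29.01, 6.71 and 6.73 CPM (4.22 [3.75 to 5.97]), and 60S acidic ribosomal protein P1 1.08, 17.7, 2.47 and 2.29 CPM (3.53 [3.03 to 5.27]). Heat shock protein 30C-like had 11.2, 107, 5.62 and 4.87 CPM (3.20 [2.94 to 3.60]). In these 3 the autumn castrated library was the highest. For receptor of activated protein C kinase 1 and 60S acidic ribosomal protein P1 the autumn intact library was also the lowest, below both spring libraries. Endonuclease III-like protein 1, a DNA repair enzyme, had 0, 18.5, 4.52 and 4.15 CPM, at least 45.7-fold higher. Integrator complex subunit 11 had 0.270, 13.8, 6.57 and 4.72 CPM (4.21 [3.79 to 8.73]), pulmonary surfactant-associated protein C 0.405, 9.21, 1.64 and 1.29 CPM (3.42 [2.91 to 6.81]) and adhesion G-protein coupled receptor D2 4.86, 52.7, 15.9 and 19.5 CPM (3.31 [2.95 to 3.97]). The androgen-dependent TFPI-regulating protein, named for its induction by androgen in human endothelium, had 38.9, 1.88, 2.19 and 2.004 CPM (-4.05 [-5.12 to -3.70]), and muscular LMNA-interacting protein 23.9, 0.396, 0.548 and 0.859 CPM (-4.77 [-7.81 to -4.53]). For both, the autumn intact library alone was high. CAMK4, a calcium-dependent kinase of neurons, had 24.6, 1.49, 0 and 0 CPM, lower in autumn (-3.66 [-4.92 to -3.29]) and at 0 counts in both spring libraries. Recombining binding protein suppressor of hairless, the DNA-binding factor of Notch signalling, had 76 and 0 autumn counts, at least 34.6-fold lower, and 0 and 1 in spring. A few genes were apart in opposite directions in the 2 seasons. The feeding peptide QRFP had 0.270, 6.63, 6.44 and 0 CPM, with autumn counts of 2 and 67 (3.21 [2.71 to 7.69]; 0.84 on its most abundant contig). Spindle assembly abnormal protein 6 homolog, of the centriole, had 1.62, 18.1, 22.3 and 4.29 CPM (3.13 [2.64 to 4.46]). Vezatin, of cell junctions, had 6.35, 0, 1.78 and 8.16 CPM. MKL/myocardin-like protein 1, an actin-regulated transcription factor, had 5.27, 0, 0 and 4.29 CPM. In autumn vezatin had 47 and 0 counts, at least 21.4-fold lower, and MKL/myocardin-like protein 1 39 and 0, at least 17.7-fold lower. The deposited counts share reads out among like contigs, so a 0 for 1 name does not show that its RNA was absent.

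**Figure D5:**
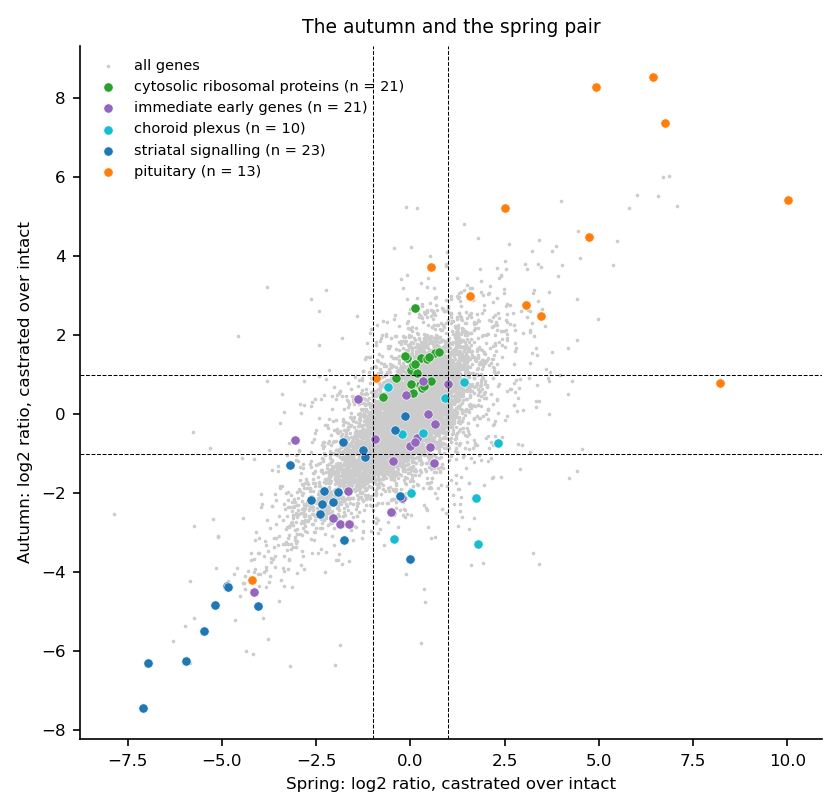
Log2 ratio of castrated over intact in spring (x axis) and autumn (y axis) for all genes, with 5 lists coloured and dashed lines at 2-fold; each axis compares 2 libraries and no library is on both. Most striatal genes lie low and most pituitary genes high on both axes. Cytosolic ribosomal proteins lie above 0 in autumn and around 0 in spring, and several choroid plexus genes lie low in autumn and high in spring.

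The genes that led the 2 directions by the counting bound nearest 0 were for the most part those regional and pituitary genes. On the higher side not yet named stood TMEM163, a zinc transporter of vesicles, at 1.49, 55.4, 5.07 and 14.3 CPM (4.82 [4.37 to 6.23]), urotensin-2B, a peptide made in rodents by brainstem and spinal neurons, at 0.405, 41.4, 0 and 47.4 CPM (5.53 [5.12 to 8.96]), and transmembrane protein 33, with 0 and 209 counts and at least 51.1-fold higher. Of the lower genes, RASGRP1 and RGS12, signalling proteins abundant in striatal neurons, had 1002, 12.1, 1055 and 8.01 CPM (-6.32 [-6.64 to -6.12]) and 1308, 16.5, 1018 and 15.9 CPM (-6.26 [-6.54 to -6.09]). BCL11B, a transcription factor of striatal projection neurons, had 144, 2.67, 124 and 2.29 CPM (-5.51 [-6.36 to -5.20]). The M-current channel subunit potassium voltage-gated channel subfamily KQT member 3 had 58.1, 0.198, 59.9 and 6.15 CPM (-6.39 [-11.25 to -6.33]), and the synaptic adhesion protein leucine-rich repeat transmembrane neuronal protein 2 had 163.2, 2.08, 162.9 and 7.44 CPM (-5.99 [-6.99 to -5.68]). Each was low in both castrated libraries. Plasma membrane calcium-transporting ATPase 2, a calcium pump, had 172, 2.08, 153 and 8.01 CPM (-6.06 [-7.07 to -5.75]). Calcium-dependent secretion activator 2, which primes dense-core vesicles, had 301 and 0 counts and was at least 137-fold lower, though the spring castrated library held it (40.6, 0, 72.6 and 17.6 CPM). Diacylglycerol kinase eta had 93.2, 1.78, 94.1 and 1.002 CPM (-5.36 [-6.47 to -5.04]), and alpha-2,8-sialyltransferase 8F had 209 and 0 counts in autumn, at least 95.01-fold lower. Tyrosinase, the melanin enzyme, had 35.8, 0.198, 8.36 and 0.143 CPM (-5.70 [-10.55 to -5.63]), highest in the autumn intact library. Palmitoyltransferase ZDHHC2 had 203 and 0 counts, at least 92.3-fold lower, against a spring ratio of 0.29.

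At the edge of the filter, hepatocyte growth factor (1.49, 0.990, 0.822 and 0.716 CPM) and serotonin N-acetyltransferase, the melatonin enzyme (0.540, 1.39, 1.23 and 0.859 CPM), lay just inside a mean of 1 CPM, and heat shock protein beta-7-like (1.62, 1.09, 0.274 and 1.002 CPM) and calpain small subunit 2 (0.540, 0.792, 1.23 and 1.43 CPM) just outside it.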

How the data were processed

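RNA from the hypothalamus of wild-caught buntings was sequenced as 4 libraries (spring and autumn, intact and castrated, 1 each), grouped by the labels. Per the submitters' processing notes, reads were trimmed with Trimmomatic and quantified with kallisto, with versions, settings, strand and read length not given in the sources used here. Per the file headers, the authors deposited estimated counts per contig, not normalized, and TPM, which is corrected for contig length, over 507906 contigs whose names begin with TRINITY. The authors also deposited matches of contigs to collared flycatcher proteins with a bit score, an e-value and the percent identity of each match, and the search tool is not given in the sources used here.

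From these files, the match of highest bit score with an e-value of at most 1e-05 was kept for each contig (50994 contigs with counts). Counts were summed per protein name, isoforms joined, and rounded to whole numbers. Counts on contigs with no kept match (about 60% of a library) stayed out of the totals. CPM used TMM factors of edgeR 4.0.16 in R 4.3.3 (0.925 to 1.04), and other steps used Python 3.11.15, numpy 2.4.6, pandas 2.3.3, scipy 1.17.1 and matplotlib 3.10.9. Like contigs share reads by estimation, so counts of close paralogs are uncertain, as are genes that share a protein name. With 1 library per group no test was possible, and a call means 2-fold. The ratio, call and interval steps were tested on counts simulated per gene with counting error only. Contig matching, summing by name, scaling and the lists were not part of that simulation.

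Genes named are the 15 leaders per direction by interval bound, the gonadal list in full, up to 6 members of each other list past 2-fold with members short of it as values, up to 10 genes per direction with a spring ratio under 0.32 in size or of the other sign, and 2 genes on each side of the filter. Other list members described were chosen after their values were seen. Of 707 symbols 564 were paired by hand with a protein name, in 33 lists, and 21 families were taken by name. Genes and lists were chosen with earlier results of these data known, and a gene may stand in several lists. Alternatives were DESeq2 1.42.0 size factors, library totals, other filters (none, 5 CPM), added values (0.1 and 2 CPM), the deposited TPM, stricter matches and the most abundant contig alone. Centring by contig length and totals without neuroligin-3 were chosen after seeing the data. Some genes chosen by this rule and 1 family are not reported here.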

Additional observations from a re-analysis of the deposited data

Results flagged for a closer look

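Of the genes named above, 10 were at least 2-fold apart in both seasons but in opposite directions, 1 library against 1 in each, and the difference between seasons was not tested. Some named genes were chosen for a spring ratio small in size or of the other sign, so the 10 follow in part from that choice. Over all 10559 genes, 42 were 2-fold lower in autumn and 2-fold higher in spring, and 20 were the reverse. Of the 10 named genes, 8 were lower in the autumn castrated library and higher in the spring castrated one. MKL/myocardin-like protein 1 had log2 ratios of -3.53 in autumn and 3.26 in spring, vezatin -3.78 and 1.92, and subfamily H member 6 of the voltage-gated potassium channels -3.82 and 1.61. Chondroadherin had -3.80 and 3.41, inward rectifier potassium channel 13 -3.29 and 1.80, and transthyretin -2.13 and 1.75. For chondroadherin, the channel and transthyretin the autumn intact library was the highest of the 4 and the spring intact one the lowest. Neuromedin-U had -2.92 and 1.56, and the cholesterol side-chain cleavage enzyme -1.39 and 2.91. The other 2 were higher in autumn and lower in spring, the feeding peptide QRFP at 3.21 and -3.79 and spindle assembly abnormal protein 6 homolog at 3.13 and -2.25. The autumn ratio of vezatin, both ratios of MKL/myocardin-like protein 1 and the spring ratio of QRFP rest on a library at 0 counts. They depend on the CPM added. On its most abundant contig alone the autumn ratio of QRFP was 0.84.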

How the results depend on the processing

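No paired analysis was possible because each group has 1 library, and for the same reason no replicate could be left out. Against 2912 genes called in autumn, the 11 alternatives called 2293 to 3607, and none moved the count by over 1.5 times. Of the 1304 higher and 1608 lower calls, 1088 and 1349 remained with the most abundant contig alone and 17 and 35 turned, 958 and 1051 remained with the deposited TPM and 7 and 11 turned, and 1119 and 1413 remained with stricter matches and 4 and 3 turned. A gene that an alternative did not measure, being under its filter or unmatched, counts here as not remaining. Of 162 called genes named above, 149 were measured with TPM and 156 with stricter matches. Among the genes named above 1 of 2473 gene and alternative pairs turned a called direction (CFAP43, 0.0041 with the most abundant contig alone), 61 lost the call and 27 gained one. Of 572 list medians 0 that were past 2-fold turned, 7 came short of 2-fold and 11 passed it, while 15 medians short of 2-fold, in 7 lists, changed sign, among them the gonadal axis (0.05 to -0.12 with library totals), hypothalamic regions (-0.38 to 0.07 at 5 CPM) and steroid receptor cofactors (-0.20 to 0.07 with the most abundant contig alone). Cytosolic ribosomal proteins ranged to 0.94 with library totals, 0.91 with no filter and 0.89 centred by contig length, and complex I to 0.88, 0.99 with 2 CPM added and 0.92 centred. Clock genes reached -1.13 with library totals, neurogenesis -1.16 at 5 CPM against -0.38 with the most abundant contig alone, sodium and calcium channels -1.03 with the most abundant contig alone and ATP synthase and V-type ATPase genes 1.07 with TPM. The cause was not tested. At 1 CPM a gene has few counts in a library, and its counting interval spans several-fold.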

Other observations

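The name neuroligin-3 had 768 TPM in the autumn intact, 6975 in the autumn castrated, 569 in spring intact birds and 1427 in spring castrated ones, and its log2 ratio was 3.09 [3.09 to 3.10] in autumn and 1.35 in spring. Of its counts 99.7% lay on 1 contig of 7200 bases, whose identity could not be checked without its sequence.

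Among the genes analysed, 37 genes had 0 counts in the autumn intact library against 25 in the autumn castrated, 52 in spring intact birds and 39 in spring castrated ones. Of the 36 with counts in the castrated autumn library only, 28 had over 20 there, and of the 24 with counts in the intact one only, 14 did.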
